A study of Mus musculus with 40 samples.

Results

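The genes described here are 10 mouse genes that make, store, break down or sense histamine and serotonin: Hdc, Slc18a2, Tph1, Ddc, Maoa, Maob, Hnmt, Hrh1, Hrh2 and Hrh4. They were taken from the deposited expression table by gene symbol, and each of the 10 matched 1 of its 23812 rows (23304 distinct symbols). The study asked how sensory neurons that carry the receptor MrgprD, and the glutamate they release, affect skin mast cells. RNA was sequenced in 40 libraries that form 10 groups of 4.

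Skin came from 4 groups. The Cre skin group is from mice with the allele Mrgprdtm1.1(cre)And on the background B6.129S1(Cg) (stock suffix Mmnc), which express Cre under Mrgprd. The DTR skin group is from mice with the allele Gt(ROSA)26Sortm1(HBEGF)Awai on the background C57BL/6 (stock suffix J) crossed to that Cre line, in which MrgprD neurons carry the diphtheria toxin receptor and are ablated by the toxin. Both genotypes received diphtheria toxin for 3 to 4 weeks according to the treatment protocol, while the Cre samples' own labels name acetone and olive oil alone and the DTR labels name the toxin with that vehicle. Whether the Cre mice received toxin was therefore not settled. The remaining skin is from C57BL/6J ears given 50 mM β-alanine, an agonist of MrgprD, or PBS daily for 2 days. The skin is labelled epidermal, whereas the protocols speak of whole ear. Mast cells sorted from Cre and DTR mice form the Cre sorted and DTR sorted groups. Peritoneal-derived mast cells of C57BL/6J mice were cultured for 6 h in glutamate-free Tyrode's buffer with vehicle or 4 mM glutamate, or for 48 h with vehicle or 50 uM NS102, a glutamate receptor antagonist. Ages, the sort gate and the 48 h medium are not given in the sources used here. Nothing says that the 4 replicates of a group are separate animals or cultures, so p-values measure only the spread between these libraries.

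Mast cells build histamine from histidine with the decarboxylase Hdc, and rodent mast cells also build serotonin. For serotonin, Tph1 hydroxylates tryptophan and Ddc decarboxylates the product. Slc18a2 (VMAT2) pumps both amines into granules. Maoa and Maob are the mitochondrial monoamine oxidases, and Hnmt inactivates histamine by methylation. Hrh1, Hrh2 and Hrh4 are histamine receptors, of which Hrh4 is found mainly on blood-derived cells, mast cells included.

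In genome build mm9, the build of the deposited table, the gene models of the amine-making members lie at chr2:126419403-126444401 (Hdc), chr7:53900010-53927907 (Tph1), chr11:11714103-11798147 (Ddc) and chr19:59335367-59370502 (Slc18a2). The sequences before the starts of Hdc, Slc18a2 and Tph1 are shown as those of the first enzyme of each amine and of the transporter that stores both. The 2 windows of Ddc, which are not printed, held no match to the motifs given next. Each is the 250 bases just upstream of a RefSeq start site in GRCm38.p6, read 5′ to 3′ on the gene's strand. Capitals mark letters that GATA-family transcription factors can bind, searched on both strands with overlapping matches counted. The motifs were AGATAA with its variant that ends in G, written AGATAG, and likewise TGATAA with its variant that ends in G, written TGATAG. The windows are chr2:126618679-126618928 (minus strand) for Hdc, chr19:59260628-59260877 (plus strand) for Slc18a2, and chr7:46672538-46672787 and chr7:46667378-46667627 (both minus strand) for the upstream and downstream starts of Tph1.
Hdc: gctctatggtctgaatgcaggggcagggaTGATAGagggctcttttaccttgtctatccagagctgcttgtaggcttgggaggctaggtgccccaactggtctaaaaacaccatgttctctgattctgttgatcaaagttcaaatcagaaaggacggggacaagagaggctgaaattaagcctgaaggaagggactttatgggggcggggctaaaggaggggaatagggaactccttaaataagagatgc
Slc18a2: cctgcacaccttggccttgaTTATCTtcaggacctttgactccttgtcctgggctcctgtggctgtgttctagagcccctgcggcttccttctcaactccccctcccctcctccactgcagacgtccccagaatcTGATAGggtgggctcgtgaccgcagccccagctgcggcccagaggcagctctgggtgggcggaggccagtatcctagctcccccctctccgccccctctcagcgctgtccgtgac
Tph1 (upstream start): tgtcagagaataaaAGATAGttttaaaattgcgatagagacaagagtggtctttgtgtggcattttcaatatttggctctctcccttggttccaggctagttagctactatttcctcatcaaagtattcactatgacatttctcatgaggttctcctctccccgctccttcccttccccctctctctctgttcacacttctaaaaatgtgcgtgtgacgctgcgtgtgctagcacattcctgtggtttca
Tph1 (downstream start): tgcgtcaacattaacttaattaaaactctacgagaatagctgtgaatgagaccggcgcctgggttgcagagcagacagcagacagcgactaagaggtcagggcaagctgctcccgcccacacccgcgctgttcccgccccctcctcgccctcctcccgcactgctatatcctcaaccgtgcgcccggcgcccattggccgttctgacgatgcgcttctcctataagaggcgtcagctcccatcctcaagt

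Positions are counted back from the start site. Hdc held 1 match, at position -221. Slc18a2 held 2, at positions -230 and -115. Tph1 held 1 match at position -236 from the upstream start and none in the downstream window. Of 32851 such windows in the whole RefSeq table, 26.5% held at least 1 match and 6.4% held 2 or more. Among the members, 14 start sites of 8 genes had a window in use and 7 of them held a match, 3 of which belong to Hrh1, a gene at 0.560 FPKM or below in every library. These matches describe letters, not bound sites.

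Values are FPKM, fragment counts scaled by transcript length and by library size. FPKM divides by transcript length, so levels can be set side by side between genes. The depth of the libraries is unknown, so no counting interval is given. Pearson correlations between libraries of a group ran from 0.9392 to 0.9987, and were lowest among the Cre sorted libraries. Keratinocyte transcripts were high in skin (Krt14 at 2113 FPKM in Cre skin) and mast cell transcripts in the sorted and cultured cells (Cpa3 at 1891 FPKM in Cre sorted cells). The summed FPKM of 10 mast cell markers was 69.1 to 90.3 in Cre skin, 202 to 247 in DTR skin, 213 to 260 in PBS skin and 4.40 to 8.44 in β-alanine skin. It was 9450 to 14112 in Cre sorted and 18040 to 29257 in DTR sorted cells. Some sorted libraries carried other cells' transcripts: Cre sorted library 4, DTR sorted library 3 and Cre sorted library 3 had summed fibroblast markers of 368, 109 and 49.0 FPKM against 1.55 to 22.8 in the other sorted libraries, Cre sorted library 3 had summed neutrophil markers of 189 FPKM, and Cre sorted library 2 had summed red blood cell markers of 481 FPKM.

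Among the synthesis genes, Hdc had the highest mean FPKM in both sorted groups and Tph1 in all 4 cultured groups. Hdc averaged 381 ± 92.7 FPKM (SD, n = 4) in Cre sorted cells and 291 ± 114 in DTR sorted cells, against 21.2 ± 10.1 and 66.7 ± 27.9 for Tph1. In peritoneal mast cells the order turned. Tph1 stood at 730 ± 13.9 FPKM and Hdc at 264 ± 13.5 after 6 h in vehicle, and at 725 ± 23.7 and 22.1 ± 2.93 after 48 h. Sorted and cultured cells differ in source and handling, and were not compared by a test.

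Ordered by group mean, Hdc was highest with glutamate (454 ± 24.6 FPKM), followed by Cre sorted, DTR sorted and vehicle 6 h cells. Each of these overlapped its neighbour in range. NS102 (48.6 ± 1.43) and vehicle 48 h cells (22.1) followed with separate ranges. All 16 skin libraries lay at 3.80 FPKM or below. Slc18a2 ran in another order: 239 ± 22.1 FPKM in vehicle 48 h, 173 ± 9.41 in vehicle 6 h, 166 ± 4.39 with NS102, 103 ± 18.9 in DTR sorted, 66.1 ± 3.18 with glutamate and 38.7 ± 3.82 in Cre sorted cells. Of these neighbours only vehicle 6 h and NS102 overlapped. Ddc was highest in vehicle 6 h (37.7 ± 0.928 FPKM) and lowest among mast cells in the Cre sorted group (9.41 ± 3.31), and reached at most 0.527 FPKM in skin.

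**Figure D1:**
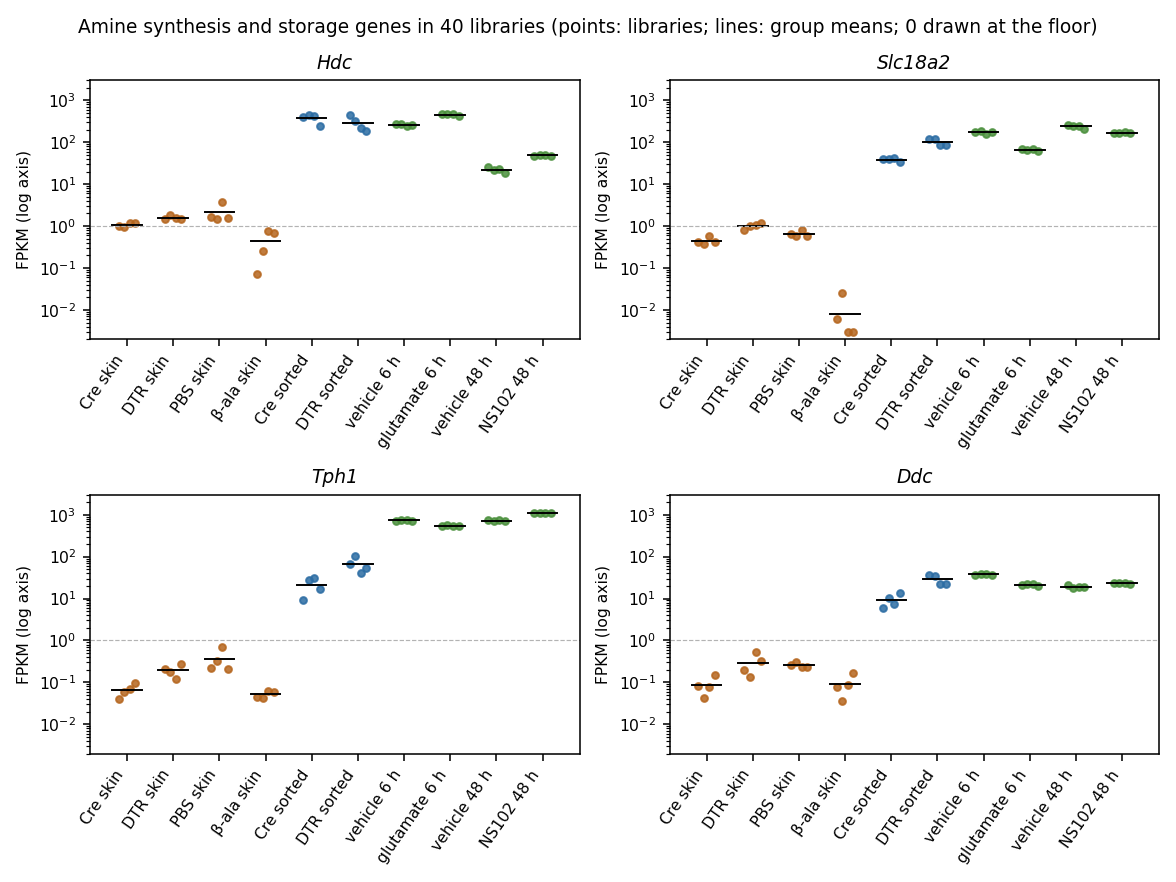
FPKM on a log axis of Hdc, Slc18a2, Tph1 and Ddc in each of 40 libraries (points), with group means as lines; brown is skin, blue sorted cells and green cultured cells, the dashed line is 1 FPKM, and values of 0 are drawn near the bottom of the axis. The mast cell groups sit far above skin for all 4 genes, and Hdc drops to 22.1 FPKM in the 48 h vehicle cultures while Tph1 stays at 725.

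Skin carried both oxidases at like levels, and the mast cells had mostly Maob. Maob averaged 35.6 ± 8.34 FPKM in Cre sorted, 91.0 ± 16.1 in DTR sorted and 63.4 ± 3.91 to 108 ± 2.97 in cultured cells, and 7.95 ± 0.260 to 12.7 ± 0.995 in skin. Maoa averaged 9.94 ± 0.567 to 12.1 ± 0.969 FPKM in skin, and its highest value in any mast cell library was 1.68 FPKM. Hnmt also belonged to skin, with group means of 5.03 ± 0.276 to 6.30 ± 0.635 FPKM. It reached at most 0.948 FPKM in the mast cell libraries and was listed at 0 in all 4 NS102 libraries.

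Hrh4 was the main histamine receptor transcript of the mast cells. It was highest in vehicle 48 h (39.01 ± 2.31 FPKM) and vehicle 6 h cells (35.4 ± 0.957), whose ranges overlapped, followed by Cre sorted (25.2 ± 7.81), DTR sorted (19.3 ± 4.27) and NS102 cells (17.1 ± 1.82), and then glutamate-treated cells (5.06 ± 0.199). In skin it reached at most 0.180 FPKM and was listed at 0 in all 4 β-alanine libraries. Hrh1 reached 0.560 FPKM in skin and 0.0745 FPKM in mast cells. Hrh2 was highest in Cre sorted cells, at 1.83, 0.718, 1.21 and 1.69 FPKM in libraries 1 to 4.

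**Figure D2:**
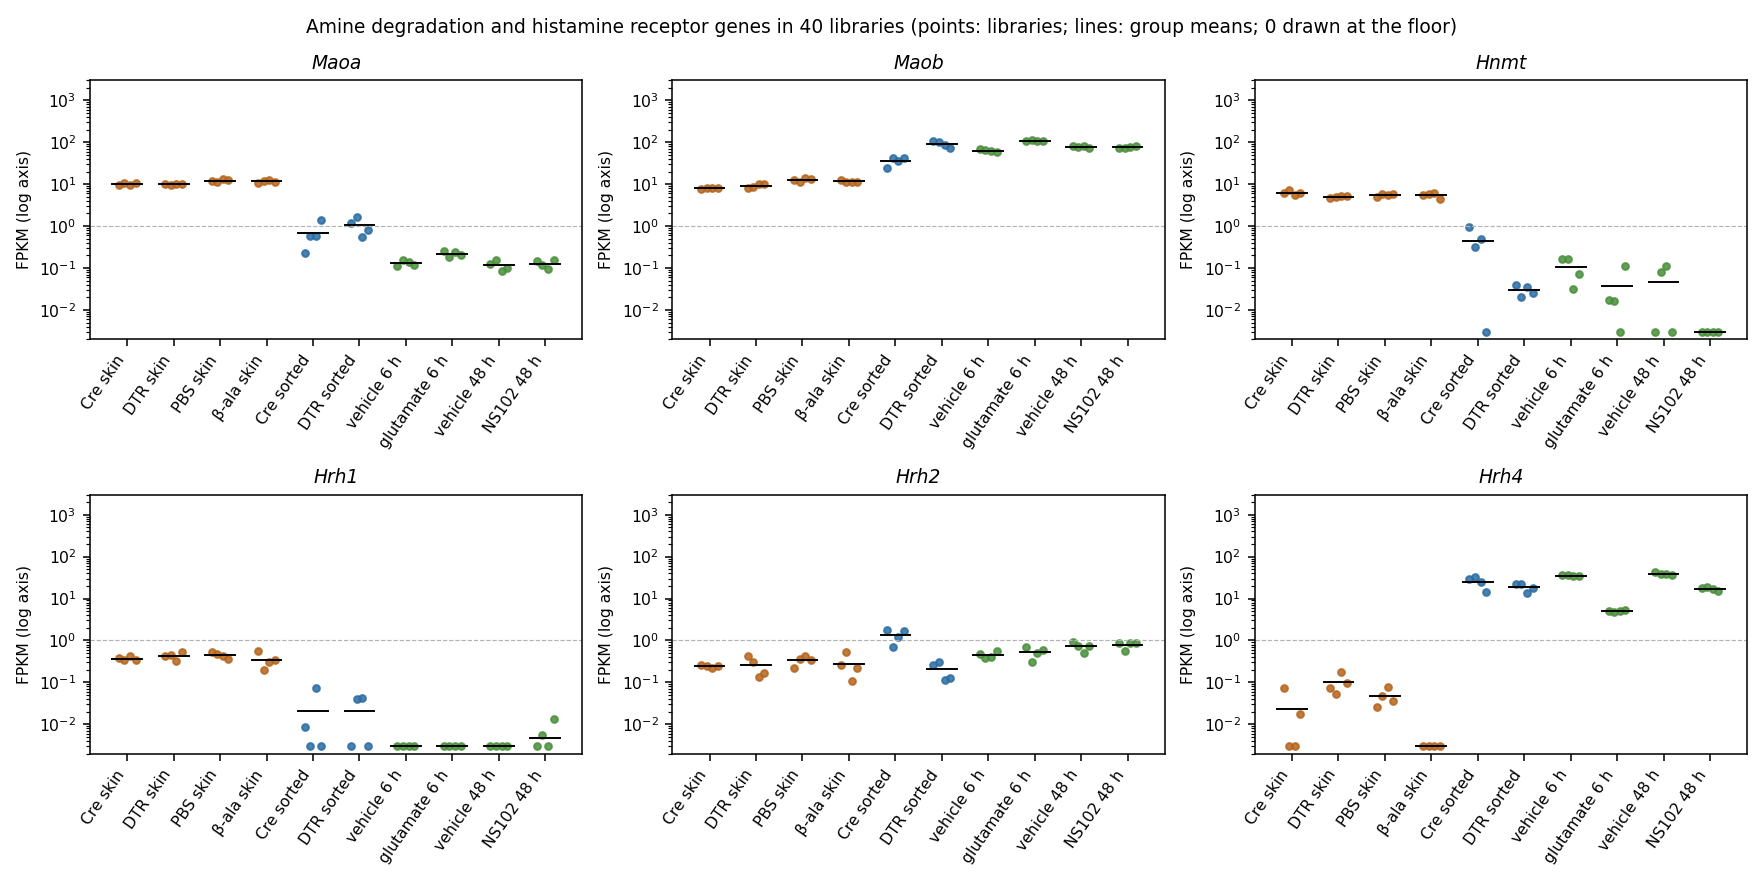
FPKM on a log axis of Maoa, Maob, Hnmt, Hrh1, Hrh2 and Hrh4 in each of 40 libraries (points) with group means as lines, colours as for the synthesis genes and values of 0 drawn near the bottom. Maoa and Hnmt are high in skin and Maob and Hrh4 in mast cells, and Hrh4 with glutamate sits at 5.06 FPKM against 35.4 in its vehicle.

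Cre sorted cells were also set against Cre skin. Each gene that reached 1 FPKM in 4 or more of the 8 libraries was fitted with limma on log2(FPKM + 1), and an adjusted p under 0.05 over all genes tested counted as a call. Of 12693 genes tested, 89.8% were called, 9.85% higher and 80% lower in the sorted cells, and the median gene differed by -1.42. Of 8 members tested, 6 were higher and 2 lower. The log2 differences were 7.48 ± 0.18 (SE) for Hdc, 4.78 ± 0.11 for Slc18a2, 4.62 ± 0.22 for Hrh4, 4.25 ± 0.33 for Tph1, 3.20 ± 0.21 for Ddc and 1.999 ± 0.169 for Maob. Maoa differed by -2.74 ± 0.19 and Hnmt by -2.38 ± 0.19. Ranges were separate for all 8, beside 87.2% of all genes. The largest adjusted p among the 8 was 2.956e-06, for Maob. With each library centred on its median, 5128 genes were higher and 4152 lower in place of 1250 and 10154, and all 8 member calls held their direction. Slc18a2, Tph1, Ddc and Hrh4 met the filter only through the sorted libraries and Hnmt only through skin. A difference was set by the filter for these 5, and the size of their differences depends on the added 1. Hdc reached 1 FPKM in 6 of the 8 libraries and Maoa in 5, so Hdc also needed the sorted libraries to meet the filter, and Maoa needed skin. The calls of all these genes and the count of members called are no support.

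The comparison of DTR with Cre skin asks what loss of MrgprD neurons does to the tissue. The DTR mice also carry a further allele from another stock, and whether the Cre mice received toxin is not settled. Genotype, background and toxin therefore cannot be told apart from neuron loss, in skin or in the sorted cells. Hdc, which makes histamine, rose and Hnmt, which inactivates it, fell in DTR skin. Hdc was 1.49, 1.85, 1.57 and 1.44 FPKM in the 4 DTR libraries and 0.991, 0.956, 1.19 and 1.21 in the 4 Cre libraries. All DTR values lay above all Cre values, beside 21.4% of all genes with separate ranges. The means differed 1.46-fold, a log2 difference of 0.31 ± 0.07 (adjusted p = 0.0248, limma). Hdc reached 1 FPKM in 6 of these 8 libraries and met the filter only with the DTR libraries, where it is high. Its call, and its place in the count of members called, are therefore no support. Hnmt was 4.64, 5.06, 5.30 and 5.10 FPKM in DTR and 6.25, 7.11, 5.56 and 6.29 in Cre skin, again without overlap. It fell by 0.27 ± 0.07 on the log2 scale (adjusted p = 0.0267).

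These 2 calls came from 4 members tested, beside 13.6% of 12607 genes called, 7.38% higher and 6.25% lower. Maob averaged 9.28 ± 1.02 FPKM in DTR and 7.95 ± 0.260 in Cre skin and missed the threshold (0.19 ± 0.07, adjusted p = 0.0809). Maoa was 10.03 and 9.94 FPKM, with a 95% confidence interval of the log2 difference from -0.09 to 0.12. With median centring, 724 genes were higher and 1029 lower in place of 931 and 788, and Hdc and Hnmt kept their calls.

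Both calls rest close to the threshold. Leaving out Cre library 1 or 2 gave Hdc an adjusted p of 0.0517 or 0.0592, and leaving out DTR library 2 or 3 gave 0.0644 or 0.0535. For Hnmt, leaving out Cre library 2 or 4 gave 0.0547 or 0.0573, and leaving out DTR library 1 or 2 gave 0.0700 or 0.0614. With the spread estimated over all 4 skin groups, the adjusted p was 0.331 for Hdc and 0.0551 for Hnmt.

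The vesicle transporter and the serotonin enzymes were under the filter in skin. Slc18a2 was 0.795, 1.03, 1.09 and 1.16 FPKM in DTR skin and 0.416, 0.365, 0.577 and 0.418 in Cre skin. Tph1 was 0.214, 0.181, 0.118 and 0.272 in DTR skin and 0.0404, 0.0602, 0.0680 and 0.0986 in Cre skin. Neither gene's groups overlapped. Without the filter, Slc18a2 (0.48 ± 0.07, adjusted p = 0.0117) and Tph1 (0.16 ± 0.04, adjusted p = 0.0453) passed the test, and Ddc (0.298 ± 0.173 against 0.0878 ± 0.0453 FPKM, adjusted p = 0.121) did not. Hnmt missed it there with an adjusted p of 0.0551. In that run 1196 of 18874 genes were called.

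The mast cell marker sum was higher in every DTR than in every Cre skin library, as given above, and its part in the higher Hdc, Slc18a2 and Tph1 was not tested. In tissue RNA, fewer cells of a type and less RNA per cell cannot be told apart. Other markers in the same skin were not alike either. Summed adipocyte markers were 190 to 231 FPKM in DTR and 436 to 544 in Cre skin, and summed muscle markers 356 to 498 and 687 to 1568, with no overlap. Summed keratinocyte markers were 13364 to 14450 FPKM in DTR and 11927 to 12399 in Cre skin, again with no overlap. Summed T and innate lymphoid cell markers were 112 to 125 and 96.1 to 107, also without overlap. Summed basophil markers were 5.42 to 6.27 in DTR and 4.21 to 5.53 in Cre skin, and summed neutrophil markers 11.1 to 19.2 and 12.8 to 25.1. Of the 5 basophil markers, only Il3ra and Itga2 averaged 1 FPKM or more in these groups. Mcpt8 and Prss34 were under 0.1 FPKM in every DTR and Cre skin library, so the basophil sum rests mostly on Il3ra and Itga2. The part of the adipocyte, muscle, keratinocyte, lymphoid, basophil and neutrophil marker transcripts in the higher Hdc and the lower Hnmt was not tested.

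With β-alanine, Hdc was lower in every library than in every PBS library, but none of the 4 members tested passed limma's test (1 had an unadjusted p under 0.05), beside 0.212% of 12709 genes called, 0.0157% higher and 0.197% lower. Hdc was 0.0715, 0.258, 0.781 and 0.686 FPKM with β-alanine and 1.68, 1.46, 3.80 and 1.57 with PBS. The log2 difference was -1.08 ± 0.23 with an adjusted p of 0.149 and an unadjusted p of 8.894e-04. Hdc met the filter only through the 4 PBS libraries, where it is high. PBS library 3 held the highest Hdc and the highest summed neutrophil markers of its group (85.1 FPKM against 7.22 to 51.2). It also held the group's highest mast cell marker sum (260 FPKM against 213 to 220), Tph1 (0.685 against 0.213 to 0.330) and Slc18a2 (0.808 against 0.565 to 0.634). The part of these transcripts in its Hdc was not tested. Without that library the Hdc difference was -0.86 ± 0.18 (adjusted p = 0.254). With the spread estimated over all 4 skin groups, Hdc passed the test at the same difference (adjusted p = 0.00807).

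Slc18a2 was listed at 0.00619, 0.0259, 0 and 0 FPKM with β-alanine and at 0.634, 0.565, 0.808 and 0.584 with PBS. It was under the filter, and without the filter it fell by 0.71 ± 0.04 on the log2 scale (adjusted p = 4.231e-04, limma). Tph1 averaged 0.0527 ± 0.00976 FPKM with β-alanine and 0.361 ± 0.223 with PBS, and Ddc 0.0907 ± 0.0548 and 0.259 ± 0.0320. The groups overlapped for neither, and without the filter neither passed (adjusted p = 0.344 and 0.124). Separate ranges were found in 6.43% of the 12709 genes that met the filter, which Slc18a2, Tph1 and Ddc did not. Without the filter, 37 of 19076 genes were called.

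None of the enzymes that break the amines down passed the test. Maoa averaged 11.6 ± 0.779 FPKM with β-alanine and 12.1 ± 0.969 with PBS, Maob 11.7 ± 0.568 and 12.7 ± 0.995, and Hnmt 5.45 ± 0.708 and 5.49 ± 0.381. The 95% confidence intervals of their log2 differences were -0.22 to 0.11, -0.27 to 0.04 and -0.21 to 0.19. The mast cell marker sum fell in the same libraries, from 213 to 260 FPKM with PBS to 4.40 to 8.44. The fall was uneven over the list. With β-alanine against PBS, Cma1 averaged 1.12 against 78.7 FPKM and Mcpt4 1.17 against 83.2. Kit averaged 1.58 against 2.34 and Mrgprb2 1.17 against 1.70. The part of the marker sum in the lower Hdc, Slc18a2, Tph1 and Ddc was not tested.

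**Figure D3:**
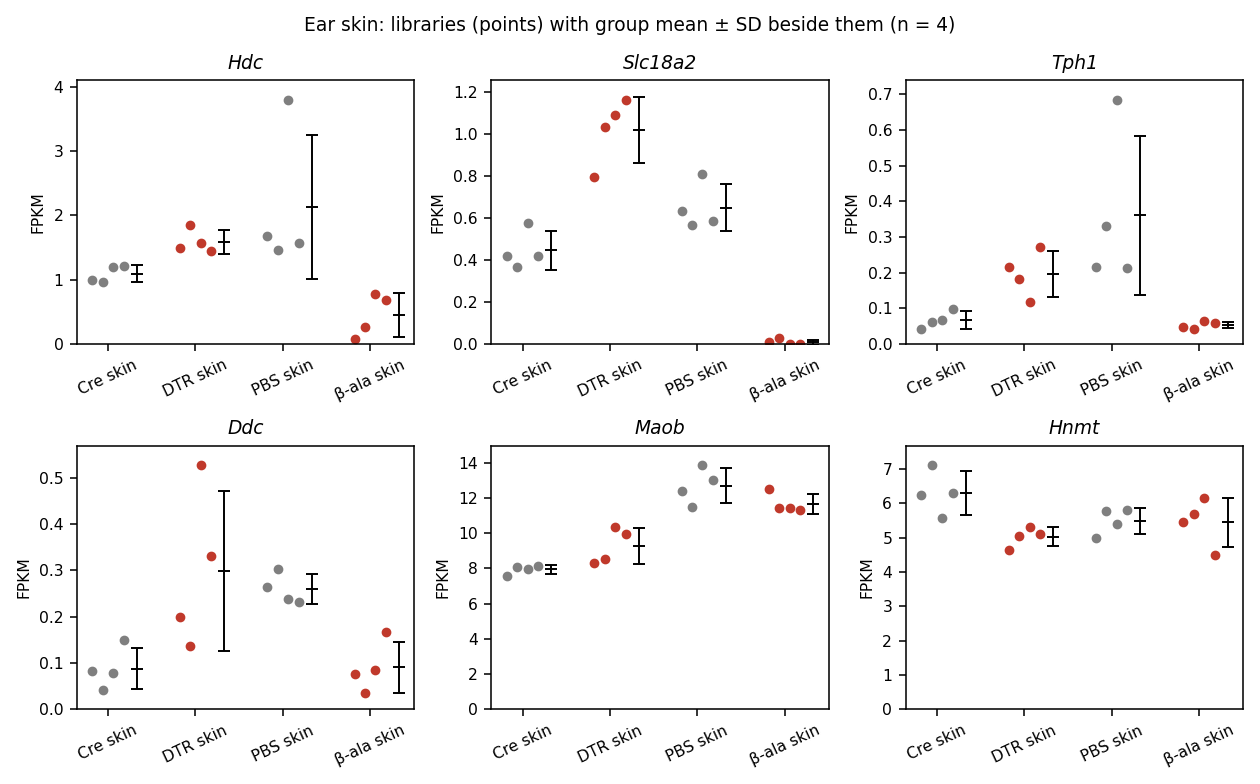
FPKM of 6 members in the 4 skin groups on linear axes from 0, with points for libraries and bars for the group mean ± SD (n = 4); grey marks the Cre and PBS groups and red the DTR and β-alanine groups. Slc18a2 separates DTR from Cre skin and is at or near 0 with β-alanine, and the PBS library at 3.80 FPKM stands apart for Hdc.

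In sorted mast cells, both serotonin enzymes, the vesicle transporter and Maob were higher in DTR than in Cre cells, by 1.35 to 1.66 on the log2 scale. Hdc and Hrh4 did not pass the test. Tph1 was 67.6, 105, 40.8 and 53.3 FPKM in the 4 DTR libraries and 9.16, 27.1, 31.7 and 16.9 in the 4 Cre libraries. Ddc was 36.2, 34.6, 22.4 and 22.8 in DTR and 6.06, 10.5, 7.52 and 13.5 in Cre cells. Every DTR library was above every Cre library for both enzymes, beside 33.5% of all genes with separate ranges. The log2 differences were 1.66 ± 0.33 (adjusted p = 5.719e-04) and 1.55 ± 0.26 (adjusted p = 1.068e-04) by limma.

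Slc18a2 was 120, 118, 87.5 and 85.3 FPKM in DTR cells and 40.5, 40.2, 41.05 and 33.003 in Cre cells. Its means differed 2.65-fold, with a log2 difference of 1.37 ± 0.22 (adjusted p = 5.920e-05). Maob was 105, 103, 84.2 and 71.6 FPKM in DTR cells and 24.1, 41.99, 34.7 and 41.5 in Cre cells, a 2.56-fold difference of means (1.35 ± 0.24, adjusted p = 1.674e-04). Ranges were separate for both genes.

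Hdc was 442, 313, 222 and 186 FPKM in DTR and 393, 454, 429 and 247 in Cre cells, with overlapping ranges. The log2 difference was -0.43 with a 95% confidence interval from -1.02 to 0.16 (adjusted p = 0.248), and it turned to 0.46 with quantile normalization (adjusted p = 0.0828). Hrh4 was 22.8, 22.6, 13.8 and 18.1 in DTR and 30.0004, 31.9, 24.3 and 14.5 in Cre cells (-0.33, interval -0.88 to 0.21, adjusted p = 0.339).

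Thus 4 of 6 members tested rose and none fell, beside 35.8% of 8871 genes called, 18.9% higher and 16.9% lower, and a median gene at 0.13. With Cre sorted libraries 3 and 4 and DTR sorted library 3 left out together, again 4 members rose and none fell. Summed FPKM was 191722, 185388, 117574 and 126017 in DTR sorted libraries 1 to 4, and 161968 to 197003 in Cre sorted cells. With median centring, 2313 genes were higher and 1903 lower in place of 1676 and 1497, and the same number of members rose, with none lower. Of the members under the filter, Hrh2 was 0.265, 0.314, 0.116 and 0.128 FPKM in DTR and 0.718 to 1.83 in Cre cells, without overlap, and it fell by 0.95 ± 0.20 when tested without the filter (adjusted p = 0.0178). In that run 2621 of 22601 genes were called. Hnmt was 0.948, 0.316, 0.492 and 0 FPKM in Cre cells and at most 0.0392 in DTR cells.

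The 2 sorted populations also differed in other transcripts. The mast cell marker sum was 18040 to 29257 FPKM in DTR and 9450 to 14112 in Cre cells. The markers on that list did not all move with the sum. Gata2 averaged 96.4 FPKM in DTR and 228 in Cre cells and Fcer1a 289 and 573, while the other listed markers were higher in DTR cells. The sum of 5 basophil markers was 116 to 200 in DTR and 530 to 830 in Cre cells, with Mcpt8 at 2.11 and 343 FPKM. Basophils also make histamine and carry Hrh4. The sum of 8 macrophage and monocyte markers was 6.82 to 17.4 in DTR and 41.96 to 52.2 in Cre cells. The part of these transcripts in the member differences was not tested.

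Whether the difference between DTR and Cre was itself different in sorted cells and in skin was asked by an interaction over the 16 libraries. Maob, which is well above 1 FPKM in both tissues, passed (interaction 1.15 ± 0.23, adjusted p = 0.00156). Its means differed 2.56-fold in sorted cells and 1.17-fold in skin. It was also called with 0.1 added in place of 1 before the logarithm. Skin Maob averaged 11.7 FPKM with β-alanine and 12.7 with PBS, where mast cell marker sums were 4.40 to 8.44 and 213 to 260. The part of mast cells in skin Maob was not tested, so no larger change within mast cells is read from its call. Tph1 (1.49), Ddc (1.30) and Slc18a2 (0.89) passed too, which makes 4 of 8 members tested, beside 27.7% of 13153 genes called, 14.4% higher and 13.3% lower. These 3 are near or below 1 FPKM in skin, where the added 1 flattens their change, and they met the filter through the sorted cells, so nothing is read from their calls. Their ratios of DTR to Cre means were 2.94 in skin and 3.14 in sorted cells for Tph1, 3.39 and 3.08 for Ddc, and 2.29 and 2.65 for Slc18a2. With 0.1 added, the 3 interactions did not pass (adjusted p = 0.212, 0.348 and 0.314). Hdc (-0.74 ± 0.32, adjusted p = 0.102) passed with median centring (adjusted p = 0.0435), without Cre sorted library 4 (adjusted p = 0.0201) or without DTR sorted library 1 (adjusted p = 0.0160). Hrh4 (-0.44 ± 0.28, adjusted p = 0.265) passed without Cre sorted library 4 (adjusted p = 0.0143). With the 3 libraries that carried fibroblast transcripts left out, Hdc, Hrh4 and Maoa passed as well, so that 7 members were called, beside 5289 of 13153 genes against 3639 with all libraries. In Cre and DTR skin, Hrh4 was at most 0.180 FPKM and Hdc at most 1.85, and Maoa was at most 1.68 FPKM in the sorted cells. The added 1 flattens their change there, so nothing is read from these calls or from the count of 7.

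In peritoneal mast cells, 6 h of glutamate raised Hdc and Maob and lowered Hrh4, Slc18a2, Ddc and Tph1. All 6 members tested were called, but so were 79.3% of 8297 genes, 16.9% higher and 62.4% lower, and the median gene moved by -0.33. Hrh4 moved most among the members. It was 5.10, 4.85, 4.99 and 5.32 FPKM with glutamate and 36.6, 35.8, 35.1 and 34.3 with vehicle, 6.99-fold lower by the means. It fell by 2.59 ± 0.05 on the log2 scale (adjusted p = 9.320e-13, limma), or by 2.26 relative to the median gene.

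Slc18a2 was 67.6, 66.5, 68.8 and 61.6 FPKM with glutamate and 175, 182, 160 and 174 with vehicle, 2.61-fold lower by the means (log2 difference -1.37 ± 0.05, or -1.04 relative to the median gene). Ddc was 20.6, 22.4, 22.4 and 20.3 with glutamate and 37.4, 38.8, 38.01 and 36.6 with vehicle (-0.79 ± 0.05, or -0.46 relative to the median). Every glutamate library lay below every vehicle library for both, beside 74.3% of all genes with separate ranges. Tph1 was 539, 555, 545 and 544 FPKM with glutamate and 712, 742, 739 and 726 with vehicle (-0.42 ± 0.03). Its change lay only -0.09 from the median gene, and with median centring it was -0.01 (adjusted p = 0.891).

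Hdc moved the other way, to 463, 472, 463 and 418 FPKM with glutamate from 275, 275, 248 and 256 with vehicle. The means differed 1.72-fold, with a log2 difference of 0.78 ± 0.05 (adjusted p = 4.664e-09), or 1.11 relative to the median. Maob was 105 to 112 FPKM with glutamate and 59.8 to 67.2 with vehicle (0.77 ± 0.04, adjusted p = 4.486e-09). With median centring, 3703 genes were higher and 2611 lower in place of 1403 and 5177. The calls of Hdc, Maob, Slc18a2, Ddc and Hrh4 held there with the same sign.

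NS102 raised Hdc, Tph1 and Ddc and lowered Hrh4 and Slc18a2. That is 5 of 6 members tested, beside 70.5% of 8373 genes called, 30.8% higher and 39.7% lower. Hdc was 47.6, 48.9, 50.5 and 47.4 FPKM with NS102 and 25.7, 21.3, 22.7 and 18.7 with vehicle, a 2.20-fold difference of means (1.11 ± 0.08, adjusted p = 2.194e-07, limma). Tph1, already abundant, was 1102, 1075, 1119 and 1096 FPKM with NS102 and 745, 716, 744 and 696 with vehicle, 1.51-fold by the means (0.60 ± 0.05, adjusted p = 7.700e-07). Neither gene's groups overlapped, beside 64.4% of all genes with separate ranges.

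Ddc rose less, from 19.4 ± 1.40 to 23.2 ± 1.02 FPKM (0.25 ± 0.06, adjusted p = 0.00331). Slc18a2 was 162, 162, 172 and 166 FPKM with NS102 and 260, 245, 244 and 208 with vehicle (-0.52 ± 0.07, adjusted p = 1.673e-05). Hrh4 was 17.9, 19.2, 16.6 and 14.9 with NS102 and 42.1, 38.8, 38.8 and 36.4 with vehicle, 2.28-fold lower by the means (-1.15 ± 0.07, adjusted p = 1.039e-07). Maob stood at 76.5 ± 3.23 and 77.3 ± 4.21 FPKM with an interval of the log2 difference from -0.13 to 0.10, and with quantile normalization it was 0.22 higher with NS102 (adjusted p = 0.00464).

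Glutamate and its antagonist were tested at different times and doses, and the 48 h medium is not given. Each was set against its own vehicle, so their effects were not compared by a test. Side by side, Hdc differed from vehicle by 0.78 with glutamate and by 1.11 with NS102, Slc18a2 by -1.37 and -0.52, Hrh4 by -2.59 and -1.15, Tph1 by -0.42 and 0.60, Ddc by -0.79 and 0.25, and Maob by 0.77 and -0.01. Among differences called under both agents, Hdc, Slc18a2 and Hrh4 had the same sign and Tph1 and Ddc opposite signs, though the Tph1 call with glutamate was lost with median centring. Maob was not called with NS102.

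The 48 h and 6 h vehicle cultures differed in time, and the 48 h medium is not given, so time and medium cannot be told apart. Hdc was 18.7 to 25.7 FPKM at 48 h and 248 to 275 at 6 h, 11.9-fold lower by the means (log2 difference -3.53 ± 0.08, adjusted p = 5.391e-14, limma). This gap is wider than the change of any member under glutamate or NS102. Ddc was 18.2 to 21.4 FPKM at 48 h and 36.6 to 38.8 at 6 h (-0.93 ± 0.06). Slc18a2 was higher at 48 h (0.46 ± 0.06), as was Maob (0.28 ± 0.05). These 4 genes had separate ranges, beside 64.5% of all genes.

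Of 6 members tested, 3 were higher and 2 lower at 48 h, beside 71.9% of 8467 genes called, 34.2% higher and 37.7% lower. Tph1 did not pass, at 725 ± 23.7 and 730 ± 13.9 FPKM, with an interval from -0.09 to 0.07. The third higher call, Hrh4 (0.13 ± 0.05, adjusted p = 0.0299), had overlapping groups and was lost with quantile normalization (0.07, adjusted p = 0.142). It was also lost without any 1 of 6 of the 8 libraries, with adjusted p from 0.0516 to 0.0867 (vehicle 6 h libraries 2, 3 and 4 and vehicle 48 h libraries 1, 2 and 3). The 6 h vehicle libraries are also the controls of the glutamate comparison, and the 48 h ones those of the NS102 comparison.

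**Figure D4:**
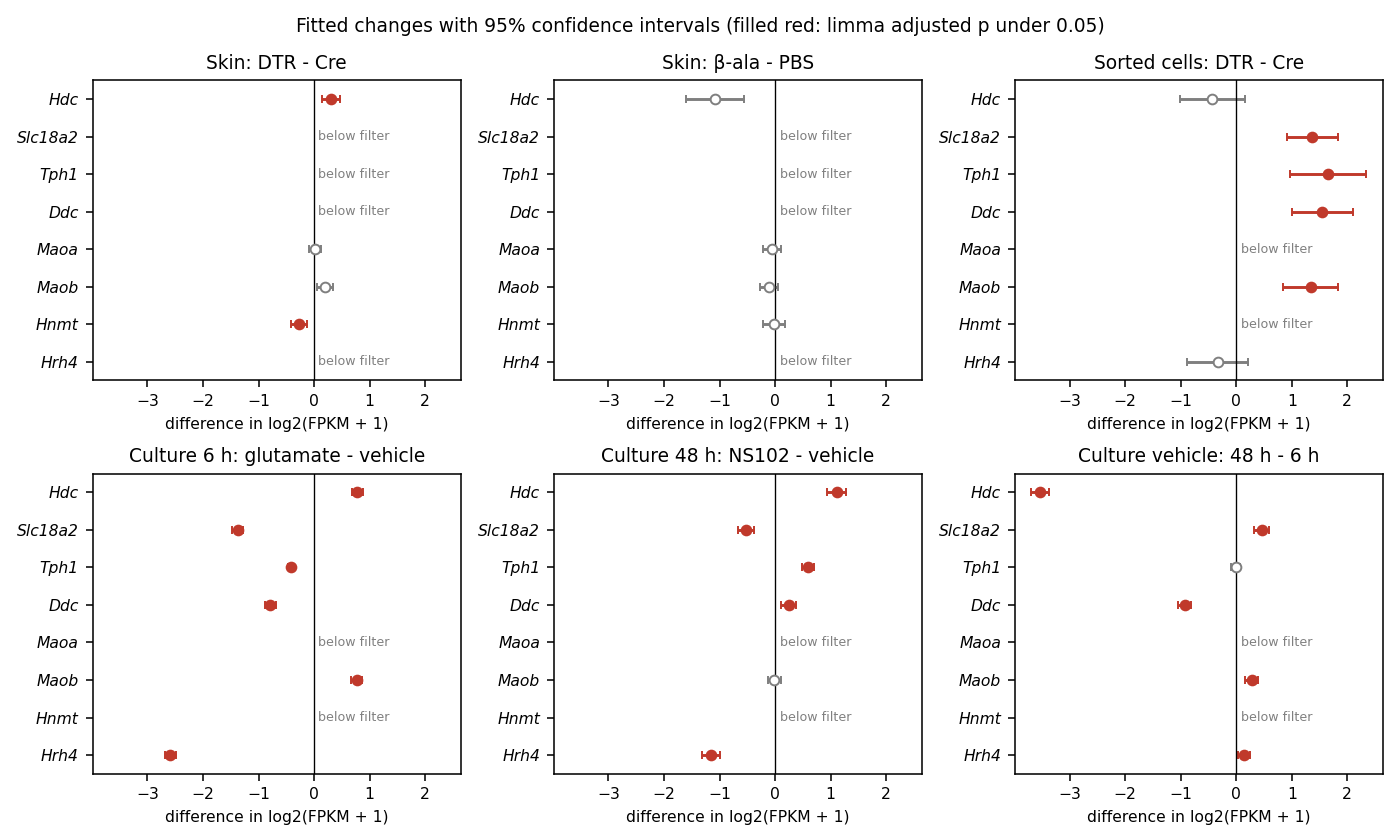
Differences in log2(FPKM + 1) from limma with 95% confidence intervals for 8 members in 6 comparisons; filled red points have an adjusted p under 0.05, open grey points do not, and members under the filter are marked. Hdc ranges from -3.53 in the culture comparison to 1.11 with NS102, and Slc18a2, Tph1, Ddc and Maob sit together between 1.35 and 1.66 in the sorted cells.

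Other genes of amine handling were taken from a list of 42 covering histidine and tryptophan supply, cofactors, transport, degradation and receptors, of which 41 matched a row. Of these, 21 stayed under 1 FPKM in all 40 libraries, among them 13 of 14 serotonin receptor genes. The exception was Htr1b, a Gi-coupled serotonin receptor, at 6.502, 5.28, 3.46 and 7.77 FPKM in Cre sorted cells and at most 0.147 in DTR sorted cells. It fell there by 2.62 ± 0.24 on the log2 scale (adjusted p = 2.872e-08, limma), but it met the filter only through the Cre libraries, and the size of the fall depends on the added 1.

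Slc6a4, the serotonin uptake transporter, was 299, 287, 185 and 172 FPKM in DTR sorted and 84.6, 99.9, 81.2 and 86.6 in Cre sorted cells (log2 difference 1.37 ± 0.24, adjusted p = 1.415e-04). In the peritoneal cells, which hold far more Tph1, no library exceeded 1.17 FPKM. In the DTR against Cre sorted cells, 8 of 16 listed genes tested rose and 2 fell, beside 18.9% of all genes higher and 16.9% lower, with a median of 0.62 over the list against 0.13 for all genes. Beside Slc6a4, Pdxk, which makes the pyridoxal phosphate that Hdc and Ddc need, rose by 1.87 ± 0.24 (from 6.35 ± 1.25 to 26.2 ± 7.15 FPKM). Pcbd1, which recycles the tetrahydrobiopterin cofactor that Tph1 needs, was 31.4, 24.4, 21.97 and 23.3 FPKM in DTR and 8.73 to 10.4 in Cre cells. The amino acid carrier Slc7a8 fell, from 21.2 to 7.66 FPKM.

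In DTR against Cre skin, 4 of 16 listed genes tested rose and none fell, beside 7.38% of all genes higher and 6.25% lower: Hal, the histidine ammonia-lyase of the epidermis (105 against 89.1 FPKM), Pcbd1 (8.54 against 5.48), Slc6a4 (9.36 against 7.51) and Srgn, the granule proteoglycan core (15.2 against 12.1). The list's median was 0.10, against 0.01 for all genes. With β-alanine none of 17 passed limma's test, and 3 had an unadjusted p under 0.05, all lower. In the cultures the list moved in both directions. Of 14 tested, 6 rose and 6 fell with glutamate, 3 rose and 7 fell with NS102, and 7 were higher and 6 lower at 48 h than at 6 h. Of all genes, 79.3%, 70.5% and 71.9% were called in these comparisons, so a call by itself does not set a listed gene apart. By direction, 16.9% of all genes were higher and 62.4% lower with glutamate. The shares were 30.8% and 39.7% with NS102, and 34.2% and 37.7% at 48 h. The median over the list was 0.05 with glutamate against -0.33 for all genes, -0.25 with NS102 against -0.06, and 0.21 in the culture comparison against -0.02.

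A cofactor gene and genes of aldehyde oxidation and amino acid uptake were among those called in culture. Pts, which makes tetrahydrobiopterin's precursor, averaged 12.4 FPKM with glutamate against 27.96 in its vehicle and 31.7 with NS102 against 60.0 in its own. Aldh2, which oxidises the aldehydes left by the monoamine oxidases, averaged 212 against 101 FPKM with glutamate and 261 against 136 with NS102. Slc3a2, the heavy chain of amino acid carriers, was higher with glutamate (219 against 105) and lower with NS102 (95.4 against 142). Slc7a5, a carrier of large neutral amino acids that include tryptophan and histidine, averaged 1.72 FPKM in vehicle at 48 h and 18.3 at 6 h, the same direction as Hdc.

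In Cre sorted cells against Cre skin, 9 of 18 listed genes tested were higher and 6 lower, beside 9.85% of all genes higher and 80% lower. The list's median was 0.32 against -1.42 for all genes. Slc7a8 and Htr1b met the filter only through the sorted libraries, and Hal and Slc18b1 only through skin. A difference was set by the filter for these genes, so their calls and the count of listed genes called are no support. Srgn was 770 against 12.1 FPKM, Slc6a4 88.1 against 7.51 and Slc7a8 21.2 against 0.837. Hal, at 89.1 FPKM in Cre skin, was at most 0.0220 FPKM in the sorted cells.

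**Figure D5:**
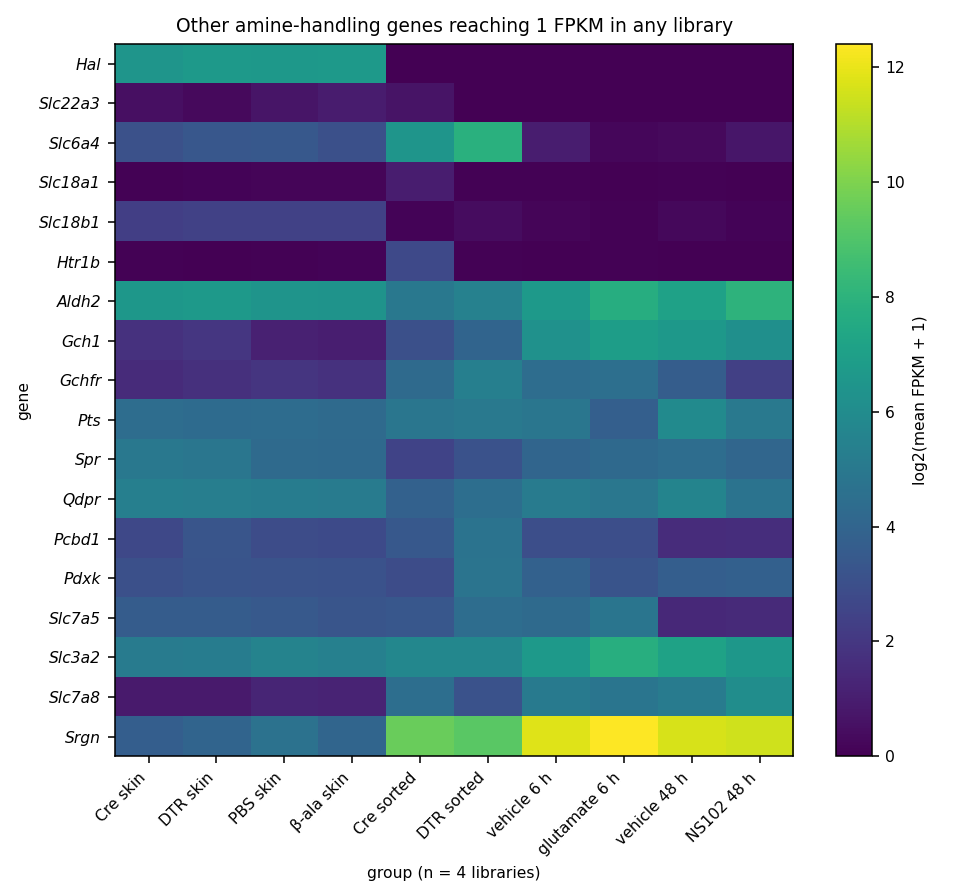
Group means (n = 4 libraries) of 18 of the listed genes that reach 1 FPKM in any library, as log2(mean FPKM + 1) on the colour scale, with genes as rows and groups as columns. Slc6a4 is brightest in the sorted cells (88.1 and 236 FPKM) and dark in the cultured cells, and Hal is confined to the 4 skin columns among these groups.

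The genes whose levels followed each member most closely were found by Pearson correlation over the 10 group means of log2(FPKM + 1), among 9575 genes, for the 8 members with a group mean of at least 5 FPKM. The points share their libraries' cell type, so a gene of mast cells follows any other. Rab37, a granule GTPase, followed Slc18a2 most closely (r = 0.998), then Atp8b5 and Cd200r4. Rprm (0.998), Emp3 and the IL-33 receptor Il1rl1 followed Tph1. Hs6st2 followed Ddc (0.995) and Cd55 followed Maob (0.991). Gpr34 (0.991) and Rab19 followed Hrh4. Hdc had the least close partner of the 8, Plek (0.9745). Vasn, Clu and Krt79 followed Maoa, and Lyve1 and Ccl27a followed Hnmt, each at 0.999. With the 40 libraries as points, the first gene stayed the same for Hdc, Slc18a2, Tph1, Ddc and Maob and changed for Maoa, Hnmt and Hrh4.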

How the data were processed

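The members and lists were chosen with earlier results of these data known. The authors deposited 1 table of FPKM values, made with STAR and Cufflinks on mm9, per the submitters' processing notes; versions, annotation and scaling are not given in the sources used here, and the header does not name the unit. Summed FPKM per library ran from 117574 to 508485. FPKM holds no depth, and single and paired end libraries are mixed, with no assignment per the labels' protocols. Columns were matched to samples by both header lines, and 0 columns were left unused. Values were fitted as log2(FPKM + 1) with limma 3.58.1 in R 4.3.3 (trend on, two-sided, 4 against 4 libraries), without further scaling, after a filter of at least 1 FPKM in at least 4 of 8 libraries (of 16 for the interaction), with Benjamini-Hochberg adjustment over all genes tested and a threshold of 0.05. The fit was tested on simulated data, with changes planted only in genes well above the filter. That test does not cover members at low FPKM. A fold on this scale understates low genes, so ratios are of group means. Named genes are all 10 members, up to 6 listed genes per comparison in order of p, and the 3 genes most like each member. Values of 2 listed genes are not reported here. Krt14, Cpa3 and Mcpt8 serve as checks of the labels. Tables were made with Python 3.11.15, pandas 2.3.3 and matplotlib 3.10.9. Promoter windows are RefSeq's, GRCm38.p6, matched by symbol, and no coordinates were converted. The alternatives tried are given at the end.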

Additional observations from a re-analysis of the deposited data

Results flagged for a closer look

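A search of 95 gene and group sets of 4 libraries found 6 with a library far from the other 3, where chance gives about 1 in 20. Hdc in PBS skin had library 3 at 3.80 FPKM, above the other 3. Slc18a2 in Cre sorted cells had library 4 at 33.003 FPKM, below the rest. Maob in β-alanine skin had library 1 at 12.5 FPKM, above the rest. The remaining 3 are low values: Hnmt at 0.112 FPKM in glutamate library 4, Hrh1 at 0.0745 FPKM in Cre sorted library 3 and Hrh2 at 0.574 FPKM in NS102 library 2.

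By limma's test of the difference between differences (DTR minus Cre, sorted cells minus skin) on the log2(FPKM + 1) scale, Maob had 1.15, Tph1 1.49, Ddc 1.30 and Slc18a2 0.89. Only Maob also passed with 0.1 added in place of 1, and the part of mast cells in skin Maob was not tested. For the other 3, which are near or below 1 FPKM in skin, the ratios of means were 2.94, 3.39 and 2.29 in skin and 3.14, 3.08 and 2.65 in sorted cells, so no larger change in sorted cells is read from them.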

How the results depend on the processing

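Of 48 single-gene differences, 34 passed the test, and 27 of these kept direction and call in every alternative run. Over 894 alternative values, 842 kept both, 25 lost the call, 9 gained it and 18 changed sign. For members, the skin ablation count of 2 became 1 with a filter of 5 FPKM and 0 with a shared spread, and ranged from 0 to 2 leaving out 1 library. The β-alanine count of 0 became 1 without a filter and 1 with a shared spread. The interaction count of 4 became 1 with a pseudocount of 0.1 and 7 with 3 sorted libraries left out, a choice made after seeing the data, and ranged from 4 to 6 leaving out 1 library. For all genes, the skin ablation count of 1719 became 729 with a shared spread and ranged from 779 to 1530 leaving out 1 library (947 without Cre library 4, and 870, 779 and 996 without DTR libraries 1, 2 and 3). A shared spread gave 130 in place of 27 for β-alanine and 5815 in place of 3639 for the interaction. A filter of 5 FPKM left fewer genes to test, and gave 1897 of 4362 for the sorted cells, 3962 of 4848 for glutamate, 3757 of 4929 for NS102 and 3888 of 5045 for the culture comparison. Elsewhere the cause was not tested.

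Sign changes were among differences that did not pass the test. Median centring and quantile normalization turned Maoa in DTR skin to -0.0096 and -0.012, and Hnmt with β-alanine to 0.033 and 0.036. Quantile normalization turned Hdc in sorted cells to 0.46, its interaction to 0.32 and Maob with NS102 to 0.22, the last with a call. Median centring turned Tph1 in culture to 0.072, and a pseudocount of 5 the Hnmt interaction to 0.062. Leaving out 1 library turned the sign of 4, which ranged from -0.013 to 0.037 (Maoa in DTR skin), -0.068 to 0.061 (Hnmt with β-alanine), -0.043 to 0.015 (Maob with NS102) and -0.023 to 0.0098 (Tph1 in culture). A shared spread was not run for the sorted cells, which have no other group.

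Replicate numbers are shared between groups, but same-numbered libraries did not deviate together in every pair of any comparison, so the numbers were not taken to pair the samples. With the replicate block, the skin ablation count of members became 1, as Hdc moved to an adjusted p of 0.0539. Counts of all genes with the block ran from 20 (β-alanine) to 11326 (sorted against skin). Depth is unknown, which limits values near 0 FPKM most.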

Other observations

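Maoa, under the filter in culture, was 0.256, 0.181, 0.243 and 0.200 FPKM with glutamate and 0.114, 0.157, 0.138 and 0.118 with vehicle, and without the filter it was 0.11 higher on the log2 scale (adjusted p = 0.00431, limma). Hrh2, also under the filter, averaged 0.731 FPKM in vehicle at 48 h and 0.457 at 6 h (0.24 higher, adjusted p = 0.0257 without the filter). In the runs without the filter, 8702 of 15469 genes were called with glutamate and 7899 of 15434 in the culture comparison. Slc18a1, the other vesicular monoamine transporter, averaged 0.976 FPKM in Cre sorted and 0.0440 in DTR sorted cells. Slc6a4 in culture was 0.140 to 0.157 FPKM with glutamate and 0.811 to 1.17 in its vehicle, and 0.623 to 0.730 with NS102 and 0.186 to 0.318 in its own.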
